A study of Homo sapiens with 8 samples.

Results

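Cyclin D3 (CCND3) and 9 other genes of the G1 cyclin and cyclin-dependent kinase machinery were followed through RNA sequencing of human prostate cancer cells. The 10 genes were CCND1, CCND2, CCND3, CCNE1, CCNE2, CDK2, CDK4, CDK6, RB1 and CDKN1B, out of 57905 genes in the deposited table, and each was found there by its Ensembl identifier. CCND3 was chosen by its own counts in these libraries, which were higher after YAP1 siRNA, so its value in that comparison is a description and carries no test. EnzaR cells tolerate enzalutamide, which blocks the androgen receptor, and were grown with 10 uM of the drug. They were transfected with 40 nM control siRNA (siNC, 2 libraries) or siRNA against YAP1 (siYAP1, 2 libraries) for 48 h. LNCaP cells are a prostate cancer line labelled as sensitive to the drug and were grown without it. They were a vehicle control (1 library), or were given for 48 h extracellular vesicles of EnzaR cells that had received control siRNA (EV-siNC), been depleted of YAP1 (EV-siYAP1) or been depleted of COUP-TFII, the nuclear receptor encoded by NR2F2 (EV-siCII), with 1 library each. The labels name neither the vehicle nor the line from which EnzaR was made, and they do not tell whether replicates were separate cultures, so a p-value here reflects the spread between libraries, which may be technical.

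A cell passes from G1 into S phase when D-type cyclins, bound to CDK4 or CDK6, begin to phosphorylate the retinoblastoma protein RB. E-type cyclins with CDK2 continue this phosphorylation, and E2F transcription factors held by RB are then free to drive genes of DNA replication. The product of CDKN1B, p27, inhibits cyclin E-CDK2 complexes and also binds cyclin D complexes. YAP1, the co-activator that Hippo signalling restrains, reaches DNA through TEAD factors, which recognise the letters GGAATG. In prostate cancer cells androgen receptor signalling is known to feed into this G1 control through the D-type cyclins.

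Because YAP1 acts through TEAD factors, the promoters of the genes were searched for that motif. RefSeq promoter windows (GRCh38.p14) of 250 bases upstream of a start were found for 6 of the 10 genes, with 9 windows in all. GGAATG, on either strand, was present in 1 of the 9 windows, a CCND3 window, against 11.9% of 35116 windows of the same length. That window is 1 of 3 for CCND3 and lies within the CCND3 gene, on the minus strand of chromosome 6. Its bases 250 to 31 upstream of the start are shown from 5′ to 3′ at chr6:41941839-41942058, with the match in capitals as CATTCC, the reverse complement of GGAATG.
CCND3 promoter: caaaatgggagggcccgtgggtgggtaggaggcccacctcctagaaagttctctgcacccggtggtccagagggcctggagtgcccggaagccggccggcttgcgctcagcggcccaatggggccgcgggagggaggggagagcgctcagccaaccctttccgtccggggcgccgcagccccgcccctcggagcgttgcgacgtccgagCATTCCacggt
The match begins 41 bases upstream of this start, at the 5′ edge of an exon of another annotated CCND3 transcript. The E2F motif, searched as TTTCCCGC, TTTCGCGC, TTTGCCGC and TTTGGCGC on either strand, was in 0 of the 9 windows and in 2.79% of all windows. A window need not lie at a gene's main start. The only RB1 window (GRCh38 chromosome 13, 48476200 to 48476449) had 36.8% GC, and the windows of the other genes had 61.2% to 81.2%. Whether it holds the main RB1 promoter was not tested, so neither motif result can be read as covering that promoter. Motif matches describe these letters only, and no binding was measured here.

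Total counts were 16682669 to 18248939 per library, and 3 counts in a library, the upper limit that a count of 0 allows, corresponded to 0.164 to 0.18 CPM (counts scaled to a common library size). The printed CPM values are scaled with edgeR's TMM factors over all 8 libraries, and log2 fold changes come from edgeR fits. YAP1 checked the siRNA labels. Its level was 59.5 and 49.2 CPM with siNC, 6.12 and 7.44 CPM with siYAP1 and 58.4 to 66.2 CPM in LNCaP (siYAP1 against siNC log2 fold change -3.02, SE 0.154, edgeR adjusted p = 2.07e-10). NR2F2 was at 43.8 to 53.4 CPM in all 8 libraries. All 8 luminal prostate markers searched were above 1 CPM in every library. Their summed level was 3818 to 4214 CPM in EnzaR and 2534 to 2844 CPM in LNCaP. Of these 8, 5 were higher and 2 lower in EnzaR siNC than in the LNCaP control. Over all 17537 genes tested in that contrast, 29.8% were higher and 28.6% lower. The basal markers KRT5 and TP63 and the leukocyte markers PTPRC and CD3E had 0 counts in every library. Basal markers were not absent, as the 5 searched summed to 19.7 to 22.8 CPM in EnzaR and 42.0 to 46.6 CPM in LNCaP. Among them ITGB4 averaged 21.1 CPM in EnzaR siNC and was at 41.6 CPM in the LNCaP control. Its log2 fold change was -0.99, or -0.14 and not called with the GC and length correction. The summed level of 6 fibroblast markers was 18.9 to 26.9 CPM in EnzaR and 102 to 119 CPM in LNCaP. That of 6 neuroendocrine markers was 29.5 to 37.6 CPM in EnzaR and 123 to 187 CPM in LNCaP. In EnzaR siNC and the LNCaP control most of each sum came from 1 gene. COL1A1, a fibroblast marker, averaged 20.51 CPM in EnzaR siNC and was at 96.97 CPM in the LNCaP control. ENO2, a neuroendocrine marker, averaged 28.91 CPM in EnzaR siNC and was at 162.91 CPM in the LNCaP control. The part of these markers in the results was not tested. In both EnzaR comparisons the fold change of a gene moved with the GC content of its transcript across genes, with Spearman's rho of 0.48 for siYAP1 against siNC over 14547 genes and -0.42 for EnzaR siNC against LNCaP control over 16988 genes. The genes are not independent replicates. Values corrected for GC content and length are given beside members and list genes whose call or direction they changed.

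**Figure D1:**
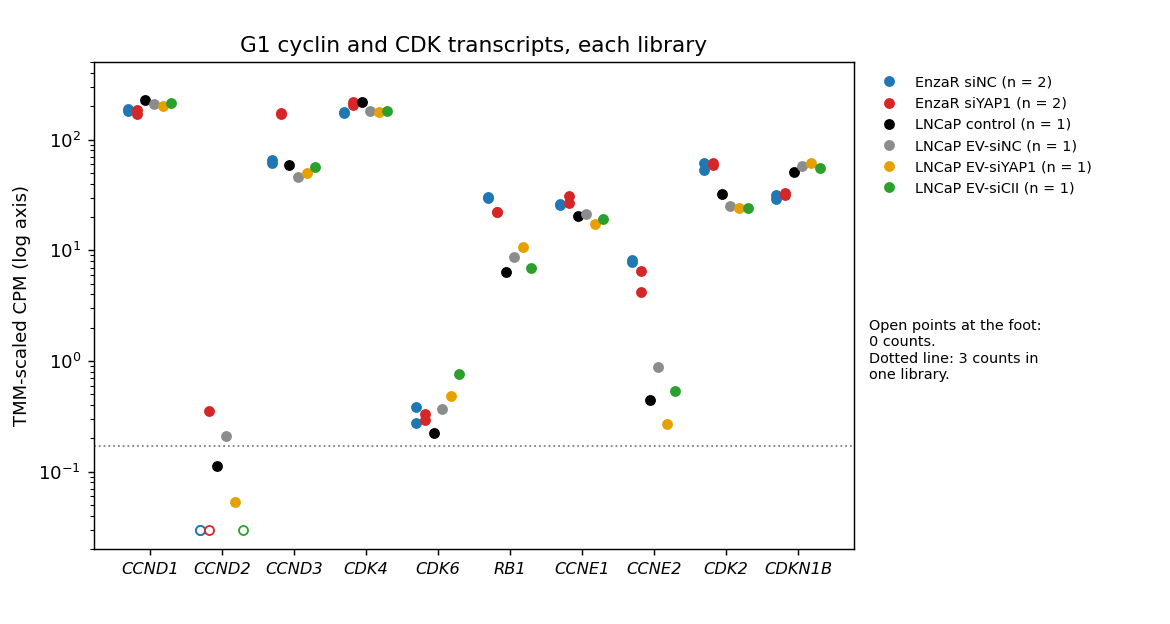
TMM-scaled CPM (log axis) of the 10 genes in each of the 8 libraries, coloured by group, with open points at the foot for 0 counts and a dotted line at about 3 counts in 1 library. CCND3 in the 2 siYAP1 libraries stands at 170 and 176 CPM, above the 46.5 to 66.1 CPM of the other 6 libraries, while CCND2 and CDK6 stay below 1 CPM.

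Of the D-type cyclins, CCND3 (ENSG00000112576, chromosome 6, 41902671 to 42018095, hg19, minus strand) carried the difference between siYAP1 and siNC cells. The siNC libraries held 66.1 and 61.8 CPM of it, the siYAP1 libraries 170 and 176 CPM, and LNCaP control, EV-siNC, EV-siYAP1 and EV-siCII 59.2, 46.5, 50.4 and 56.4 CPM. Both siYAP1 libraries were above every other library, and no LNCaP library reached the lower siNC library. The mean of 63.9 ± 3.05 CPM in siNC stood against 173 ± 4.05 CPM in siYAP1 (SD, n = 2), which is 2.66-fold, or 1.41 on the log2 scale (SE 0.0987). As with all bulk RNA, more cells with the transcript and more transcript per cell cannot be told apart. The value ran from 1.30 with the GC and length correction to 1.46 without siNC replicate 1 over 12 alternative analyses.

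CCND1, a D-type cyclin often amplified in epithelial cancers (ENSG00000110092, chromosome 11, 69455855 to 69469242, plus strand), overlapped between siYAP1 and siNC cells. Its levels were 189 and 183 CPM in siNC, 172 and 185 CPM in siYAP1, and 230, 209, 200 and 215 CPM in LNCaP control, EV-siNC, EV-siYAP1 and EV-siCII. All 4 LNCaP libraries were above all 4 EnzaR libraries. The siYAP1 against siNC log2 fold change was -0.08 (SE 0.0938, edgeR adjusted p = 0.593). CCND2, the remaining D-type cyclin (chromosome 12, 4382938 to 4414516), had 0 counts in 4 libraries and 1 to 6 counts in the other 4, of which 6 were in siYAP1 replicate 2. It did not pass the filter on low counts, and no fold is given.

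Per kilobase of exonic length, where genes can be compared with each other, the D-type cyclin pool consisted almost wholly of CCND1 and CCND3. CCND3 made up 24.2% and 23.6% of the summed D-type cyclin level per kilobase in the siNC libraries and 47.4% and 46.4% in the siYAP1 libraries. In LNCaP control, EV-siNC, EV-siYAP1 and EV-siCII it made up 19.0%, 16.9%, 18.7% and 19.3%. The 3 groups of shares did not overlap, and CCND1 went from 3.13 and 3.24 times the CCND3 level in siNC to 1.11 and 1.15 times in siYAP1. The summed level itself was 51.5 and 49.5 CPM per kilobase in siNC, 67.8 and 71.6 in siYAP1, and 50.9 to 58.9 in LNCaP. These shares contain the CCND3 value that chose the gene and are given without a test.

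**Figure D2:**
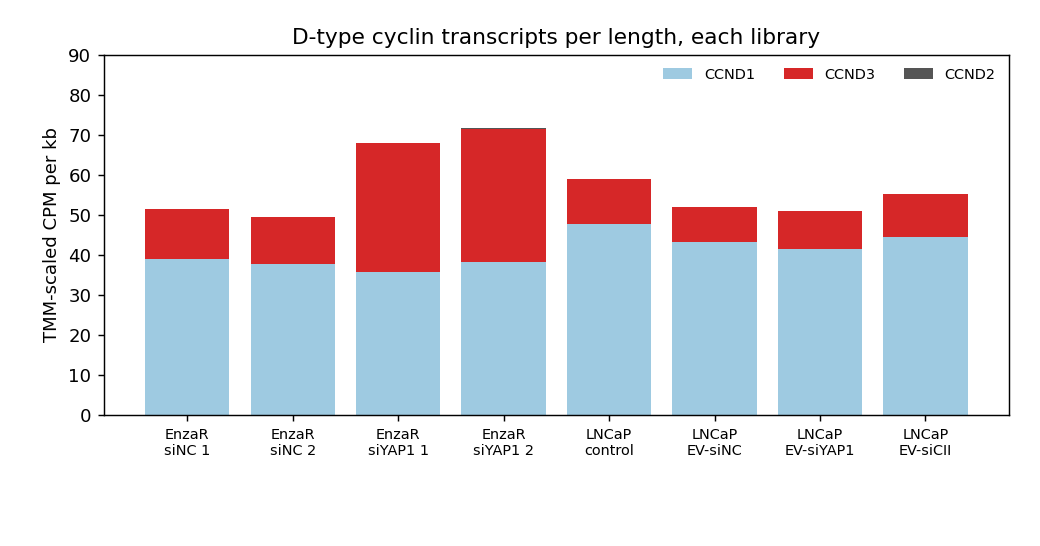
Stacked bars of CCND1, CCND3 and CCND2 in TMM-scaled CPM per kilobase of exonic length for each of the 8 libraries, from 0. The CCND1 part stays between 35.7 and 47.7, while the CCND3 part is 32.1 and 33.2 in the siYAP1 libraries and at most 12.5 in the others.

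CDK4, the kinase partner of the D-type cyclins (ENSG00000135446, chromosome 12, 58141510 to 58149796, minus strand), was at 178 and 174 CPM in siNC and at 218 and 206 CPM in siYAP1. LNCaP control was at 218 CPM and EV-siNC, EV-siYAP1 and EV-siCII at 182, 176 and 181 CPM. The siYAP1 libraries lay above the siNC libraries without overlap, but the log2 fold change of 0.24 (SE 0.0929) did not pass the threshold of 0.05 (edgeR adjusted p = 0.0899). CDK6, the other D-cyclin kinase (chromosome 7, 92234235 to 92465908), had 4 to 14 counts per library, under 1 CPM throughout. It was not tested between siYAP1 and siNC. CDK4 exceeded CDK6 in every library, with 54.9 to 68.9 against 0.0182 to 0.0618 CPM per kilobase.

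RB1, the retinoblastoma gene on which these kinases act (ENSG00000139687, chromosome 13, 48877887 to 49056122, plus strand), was the only one of the other 9 genes to pass the test between siYAP1 and siNC. It was at 29.8 and 30.3 CPM in siNC, at 22.2 CPM in both siYAP1 libraries, and at 6.38, 8.67, 10.8 and 6.93 CPM in LNCaP control, EV-siNC, EV-siYAP1 and EV-siCII. The 3 sets of libraries did not overlap. RB1 fell, with means of 30.1 ± 0.36 CPM in siNC and 22.2 ± 0.023 CPM in siYAP1 (SD, n = 2) and a log2 fold change of -0.47 (SE 0.128, edgeR adjusted p = 0.025). The call was lost in each of the 4 fits that left out a library, with log2 fold changes of -0.48 to -0.45 and edgeR adjusted p of 0.0507 without siNC replicate 1, 0.0738 without siNC replicate 2, 0.219 without siYAP1 replicate 1 and 0.0867 without siYAP1 replicate 2. With the GC and length correction the value was -0.19 (adjusted p = 0.416); the RB1 transcript has 42.3% GC against a median of 50.6% over the genes tested.

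The E-type cyclins differed from each other in their levels across the lines. CCNE1 (ENSG00000105173, chromosome 19, 30302805 to 30315215, plus strand) was at 25.9 and 26.1 CPM in siNC, 30.9 and 26.6 CPM in siYAP1, and 20.5, 21.1, 17.2 and 19.2 CPM in LNCaP control, EV-siNC, EV-siYAP1 and EV-siCII. Its siYAP1 against siNC log2 fold change was 0.11 (SE 0.13, edgeR adjusted p = 0.597). CCNE2 (ENSG00000175305, chromosome 8, 95891998 to 95908906, minus strand) was at 7.82 and 8.26 CPM in siNC and at 4.23 and 6.50 CPM in siYAP1, a log2 fold change of -0.60 (SE 0.223, edgeR adjusted p = 0.0802). LNCaP held 8, 17, 5 and 10 counts of CCNE2 in control, EV-siNC, EV-siYAP1 and EV-siCII, which is 0.447, 0.893, 0.269 and 0.542 CPM. CCNE2 was thus low in all 4 LNCaP libraries and several-fold higher in all 4 EnzaR libraries. Over the 4 fits that left out a library, the CCNE2 value for siYAP1 against siNC ran from -0.94 without siYAP1 replicate 2 to -0.34 without siYAP1 replicate 1. With the GC and length correction it was -0.29 (edgeR adjusted p = 0.484).

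CDK2, the kinase of the E-type cyclins (ENSG00000123374, chromosome 12, 56360553 to 56366568, plus strand), was at 61.7 and 53.5 CPM in siNC and at 61.3 and 59.0 CPM in siYAP1. It was at 32.2, 25.0, 24.4 and 24.3 CPM in LNCaP control, EV-siNC, EV-siYAP1 and EV-siCII. The siNC and siYAP1 libraries overlapped (log2 fold change 0.03, SE 0.11, edgeR adjusted p = 0.874), and every EnzaR library was above every LNCaP library. CDKN1B, the gene of the inhibitor p27 (ENSG00000111276, chromosome 12, 12867992 to 12875305, plus strand), had the opposite order between lines. It was at 31.4 and 29.1 CPM in siNC, 31.4 and 32.7 CPM in siYAP1, and 50.7, 57.4, 61.5 and 55.1 CPM in LNCaP control, EV-siNC, EV-siYAP1 and EV-siCII. Its siYAP1 against siNC log2 fold change was 0.06 (SE 0.123, edgeR adjusted p = 0.805).

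Between siYAP1 and siNC, then, 8 of the 10 genes passed the filter on low counts, CCND3 among them. Of the 7 tested, 0 were higher and 1 was lower at an edgeR adjusted p under 0.05, beside 5.83% higher and 6.22% lower of the 14948 genes tested. At an unadjusted p under 0.05, 1 was higher (CDK4) and 2 were lower (RB1 and CCNE2). The share of all genes at the unadjusted threshold is not given, so these counts stand without a background. DESeq2 and limma-voom each called 0 higher and 1 lower. At the adjusted threshold the share of members called is near the background.

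**Figure D3:**
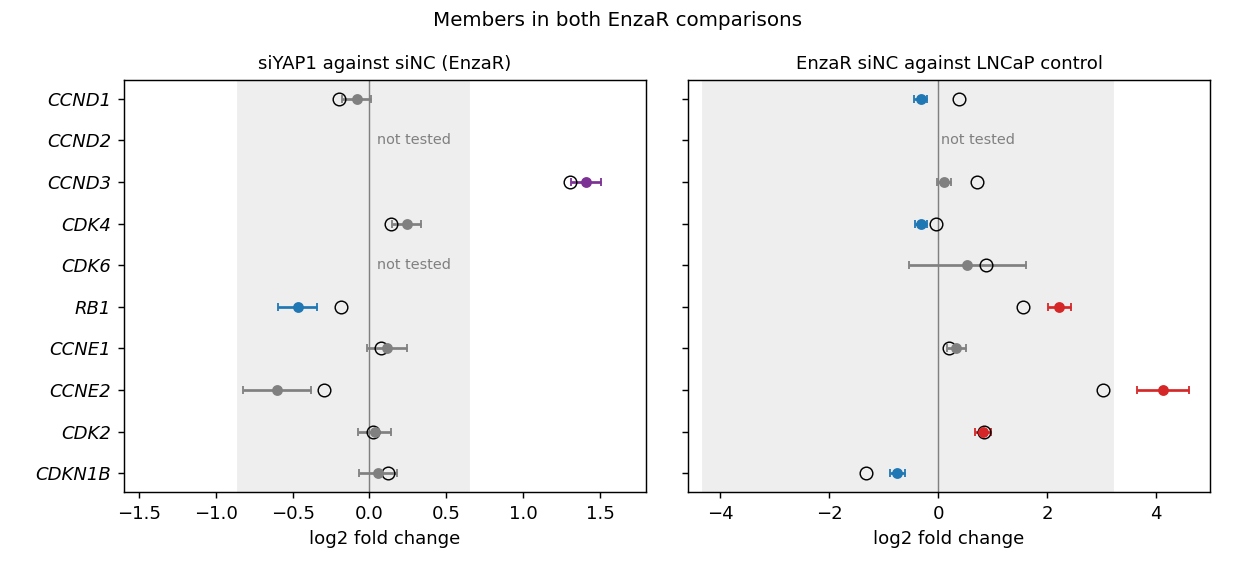
Log2 fold changes (filled points, bars of 1 SE) of 8 of the 10 genes for siYAP1 against siNC in EnzaR cells (left) and of 9 for EnzaR siNC against LNCaP control (right), the rest marked as not tested; red passed as higher, blue as lower, grey did not pass, and CCND3 on the left (purple) chose the set. Open circles are the values with the GC and length correction, and the grey band spans the central 95% of all genes, from -0.85 to 0.65 on the left and -4.32 to 3.21 on the right.

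The 2 lines were compared through EnzaR siNC and the LNCaP control. This contrast joins the line, the drug in the medium and the siRNA transfection, which cannot be told apart, and the lone LNCaP library is assumed to vary like the EnzaR replicates. CCNE2, RB1 and CDK2 were higher and CDKN1B, CCND1 and CDK4 lower in EnzaR siNC, 3 and 3 of the 9 genes tested, where 29.8% and 28.6% of 17537 genes passed in these directions. CCNE2 was 17.6-fold higher (log2 fold change 4.14, SE 0.48, edgeR adjusted p = 4.3e-08), above the central 95% of all genes. RB1 was 4.68-fold higher (log2 fold change 2.23, SE 0.208, edgeR adjusted p = 9.04e-10) and CDK2 1.78-fold higher (0.83, SE 0.147, edgeR adjusted p = 2.68e-05). CDKN1B was lower with a log2 fold change of -0.75 (SE 0.136, edgeR adjusted p = 3.39e-05). These 4 calls were kept in all 10 alternative analyses. With the GC and length correction CCNE2 was at 3.02, inside the central 95% given for the uncorrected values, RB1 at 1.55, CDK2 at 0.84 and CDKN1B at -1.33.

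The D-cyclin side of the set was less settled between the lines. CCND1 had a log2 fold change of -0.32 (SE 0.115, edgeR adjusted p = 0.019), but 0.38 (adjusted p = 0.00317) with the GC and length correction, and its call was lost without either siNC replicate. CDK4 had -0.32 (SE 0.114, edgeR adjusted p = 0.0186), with -0.04 after the correction, and its call was also lost without either siNC replicate and with the 4 LNCaP libraries as 1 group. For CCND3 the value was 0.10 (SE 0.127, edgeR adjusted p = 0.514), becoming 0.25 with the 4 LNCaP libraries as 1 group (adjusted p = 0.0254) and 0.71 with the correction (adjusted p = 7.66e-06). CCNE1 had 0.34 (SE 0.17, edgeR adjusted p = 0.0927) and passed with the 4 LNCaP libraries as 1 group, at 0.39 (adjusted p = 0.00765). That group joins the control with libraries given different vesicles, so its spread is not that of LNCaP replicates. CDK6 had 0.54 (SE 1.07, edgeR adjusted p = 0.688). The CCND1 and CCND3 transcripts have 61.9% and 59.5% GC.

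The order of the levels per kilobase placed CDK4 first and CCND1 second in every group. In siNC cells they were followed by CDK2, CCND3, CDKN1B, CCNE1, RB1, CCNE2, CDK6 and CCND2, and no 2 neighbours in this order overlapped between the 2 libraries. In siYAP1 cells CCND3 ranked next after CCND1, at 32.7 CPM per kilobase beside 37.0 for CCND1 and 15.4 for CDK2. CDKN1B and CCNE1, and CDK6 and CCND2, overlapped in that group. Over the 4 LNCaP libraries CDKN1B ranked next, at 18.0 to 21.9 CPM per kilobase, ahead of CCND3 at 8.78 to 11.2. There CCNE1 and CDK2 overlapped, as did CCNE2, CDK6 and CCND2 at the foot of the order. Between the lines the ratio of CDK4 to CDK2 per kilobase was 3.54 to 4.38 in EnzaR and 8.32 to 9.17 in LNCaP.

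In LNCaP cells given vesicles each group has 1 library, so there is no test, and intervals are exact binomial 95% limits that cover counting error only. Of the 10 genes, 7 reached 5 CPM in either library in each comparison, and 0 of the 7 were past 1.5-fold in any of the 3. Past that fold were 4.43% of 10846 genes for EV-siNC against control, 1.5% of 10932 for EV-siYAP1 against EV-siNC and 1.26% of 10903 for EV-siCII against EV-siNC, beside 1.62% and 1.76% between the 2 siNC and the 2 siYAP1 replicates of EnzaR. The 3 comparisons share the EV-siNC library. CCND3, CCND1, CDK2 and CDK4 were lower in EV-siNC than in control, with log2 ratios of -0.35 (-0.48 to -0.22), -0.14 (-0.20 to -0.08), -0.36 (-0.54 to -0.19) and -0.26 (-0.33 to -0.19). RB1 and CDKN1B were higher, at 0.44 (0.09 to 0.80) and 0.18 (0.05 to 0.31), and CCNE1 was at 0.04 (-0.16 to 0.25). All 7 lay inside the central 95% of the genes compared, from -0.39 to 0.65, and with the GC and length correction CCND1, CDK4, CCND3 and RB1 were at -0.04, -0.15, -0.25 and 0.13.

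With vesicles of YAP1-depleted cells, CCND3 was at 0.12 (-0.02 to 0.25) against EV-siNC. CCNE1 was at -0.29 (-0.51 to -0.08) and RB1 at 0.32 (0.01 to 0.62), and the other 4 genes were between -0.06 and 0.10 with intervals that included 0. With vesicles of COUP-TFII-depleted cells, CCND3 was at 0.28 (0.15 to 0.41) and RB1 at -0.32 (-0.67 to 0.02), and the other 5 were between -0.14 and 0.04 with intervals that included 0. EV-siCII thus had CCND3 at 56.4 CPM, between EV-siNC at 46.5 and control at 59.2. Between the EnzaR siYAP1 replicates, 1 of the 8 members at 5 CPM or more was past 1.5-fold, CCNE2 at 0.60.

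**Figure D4:**
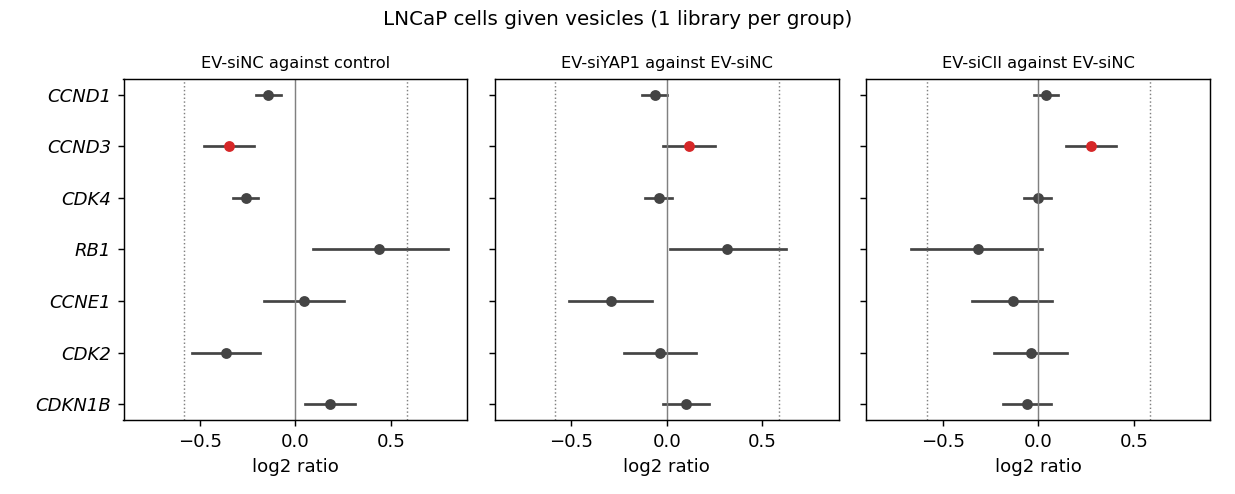
Log2 ratios of the 7 genes at 5 CPM or more for the 3 vesicle comparisons in LNCaP cells (1 library per group), with exact binomial 95% counting intervals and dotted lines at 1.5-fold. All points lie between -0.36 and 0.44, inside the dotted lines, and CCND3 is drawn in red.

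The other genes of the G1/S pathway were described from 8 lists. Of all 14948 genes tested between siYAP1 and siNC, 5.83% were higher and 6.22% lower. Among CDK inhibitors, CDKN1A, the gene of p21, rose with siYAP1, from 507 and 504 CPM to 675 and 665 CPM (log2 fold change 0.38, SE 0.0936, edgeR adjusted p = 0.016), 1 higher and 0 lower of 6. Its call was lost with the GC and length correction (0.21, adjusted p = 0.148) and in 3 of the 4 fits that left out a library. Of the pocket proteins and RB partners, RBL2, which encodes the RB relative p130, fell by 0.44 on the log2 scale (SE 0.114, edgeR adjusted p = 0.019), the 1 call among 9, which was lost with the correction (-0.12, adjusted p = 0.56) and in 2 of the 4 fits that left out a library. Of 10 E2F and DP factors 2 rose, E2F2 from 32.3 and 27.5 CPM to 53.6 and 58.7 CPM (0.88, SE 0.121, edgeR adjusted p = 0.00039) and E2F1, the founding activator of the family, by 0.50 (SE 0.098, edgeR adjusted p = 0.0045). With the correction E2F2 was at 0.88 and E2F1 at 0.29 (adjusted p = 0.0602), no longer called. The medians of these 3 lists were 0.24, -0.15 and 0.10, beside -0.03 over all genes tested.

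Downstream of RB, 4 of 19 S-phase entry genes rose and 3 fell, where 5.83% and 6.22% of all genes did. Of these 7 calls 0 were kept with the GC and length correction and 0 in all 4 fits that left out a library. GINS2, CDT1, MCM7 and CDC45, which load or form the replicative helicase, had log2 fold changes of 0.36, 0.35, 0.32 and 0.31, and 0.30, 0.12, 0.29 and 0.28 with the correction. Among those that fell, CCNA2, the S-phase cyclin A2, and the helicase subunit MCM6 had -0.43 and -0.32, and -0.28 and -0.11 with the correction. The list's median was 0.03. Of 10 proliferation markers AURKB (0.43) and BIRC5 (0.37) rose and BUB1 (-0.59) fell, with a median of -0.06; AURKB and BUB1 were at 0.29 and -0.31 with the correction and not called. Among 17 regulators of D-type cyclin transcription, activators and repressors together, JUNB rose (0.37, and 0.06 and not called with the correction) and STAT3 fell (-0.45), with a median of -0.03. By edgeR, DESeq2 and limma-voom, 0 were called among 6 CDK activation genes and 15 ubiquitin ligase parts that act on G1 cyclins and p27. The medians of these lists were -0.08 and -0.11. At an unadjusted edgeR p under 0.05, 1 CDK activation gene was higher and 1 lower, and 0 ligase parts were higher and 6 lower. The share of all genes at that threshold is not given, so these counts also stand without a background. Of the 16 calls in all lists, 3 (E2F2, STAT3 and BIRC5) were kept with the GC and length correction, and 1, E2F2, was kept in all 4 fits that left out a library.

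Between the lines the S-phase side of the pathway was far higher in EnzaR siNC than in the LNCaP control. Over all 17537 genes tested in this contrast, 29.8% were higher and 28.6% lower. All 19 S-phase entry genes tested were higher, with a median log2 fold change of 2.95 beside -0.0022 over all genes, and all 19 were kept with the GC and length correction and in all 4 fits that left out a library. CDC6, the helicase loader, was at 98.2 ± 3.85 CPM (SD, n = 2) against 2.01 CPM (5.59), and RRM2, the small subunit of ribonucleotide reductase, at 204 ± 11.97 against 7.61 CPM (4.73). CCNA2 and CDC45 followed with 4.59 and 4.36. All 10 proliferation markers were higher (median 3.88), led by TOP2A, AURKA, CDK1 and CCNB1 with 4.38, 4.36, 4.27 and 4.12. Summed over the 10 markers, the level was 1009 to 1020 CPM in siNC, 1075 to 1113 CPM in siYAP1 and 52.76 to 77.003 CPM in LNCaP. CCNE2, RB1 and CDK2 were thus higher in the same libraries in which the proliferation markers were higher, and the part of cell cycling in their values was not tested.

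The regulators between the cyclins and these genes were also mostly higher in EnzaR siNC, where 29.8% of all genes tested were higher and 28.6% lower. Of 10 E2F and DP factors 8 were higher and 0 lower (median 1.58), with E2F8, E2F2, E2F7 and E2F1 at 4.28, 3.62, 3.50 and 3.32. Of 9 pocket proteins and RB partners 7 were higher and 0 lower (median 0.82), among them LIN9 and LIN52 of the DREAM and MuvB complex (3.89 and 1.84), RBL1, the gene of p107 (2.30), and the histone deacetylase gene HDAC2 (0.84). Of 6 CDK activation genes 5 were higher (median 1.24), including the phosphatase gene CDC25A (2.73) and CCNH, CDK7 and MNAT1 of the CDK-activating kinase (1.76, 1.25 and 1.24). Of 15 ubiquitin ligase genes 9 were higher and 2 lower (median 0.70), including CKS1B and SKP2, which direct p27 to degradation (3.04 and 1.98), and CUL4A and CUL1 (1.43 and 1.27). DDB1 and AMBRA1, parts of the ligase that degrades D-type cyclins, were lower (-0.88 and -0.91), while its cullin CUL4A was among the higher genes. Of the 73 calls over all 8 lists in this contrast, 64 were kept with the GC and length correction and 68 in all 4 fits that left out a library. The losses were uneven. With the correction the ubiquitin ligase genes kept 6 of 11 calls (median 0.29) and the pocket proteins and RB partners 5 of 7 (median 0.63). The E2F and DP factors kept 7 of 8 (median 1.74) and the CDK activation genes 4 of 5 (median 0.62). With the correction MNAT1 was at 0.09 and not called, and CCNH, CDK7 and CUL1 were at 0.69, 0.56 and 0.55.

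Of 6 CDK inhibitors 2 were higher and 2 lower in the contrast between the lines (median -0.51). These counts are near the shares over all genes tested, 29.8% higher and 28.6% lower. CDKN2A, the gene of p16 and p14ARF, was at 4.43 and 4.49 CPM in siNC and at 134 CPM in the LNCaP control (-4.92, SE 0.15, edgeR adjusted p = 2.7e-19), and CDKN1C, the gene of p57, at 1.53 and 1.72 against 48.1 CPM (-4.89). CDKN2C, the gene of p18, was at 46.7 and 43.1 against 4.64 CPM (3.26), and CDKN2D at 16.7 ± 1.13 (SD, n = 2) against 11.5 CPM (0.53). The CDKN2D call was lost with DESeq2, with the 4 LNCaP libraries as 1 group and without siNC replicate 2, at 0.46. Of the 17 regulators of D-type cyclin transcription 2 were higher, TEAD4 (0.79) and CTNNB1 (0.66), and 7 lower (median -0.23), led by STAT5A, TCF7L2, FOXO1 and FOXO3 with -4.01, -3.41, -2.57 and -2.09. FOXO1 and FOXO3 are known both to restrain D-type cyclin genes and to activate CDKN1B.

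**Figure D5:**
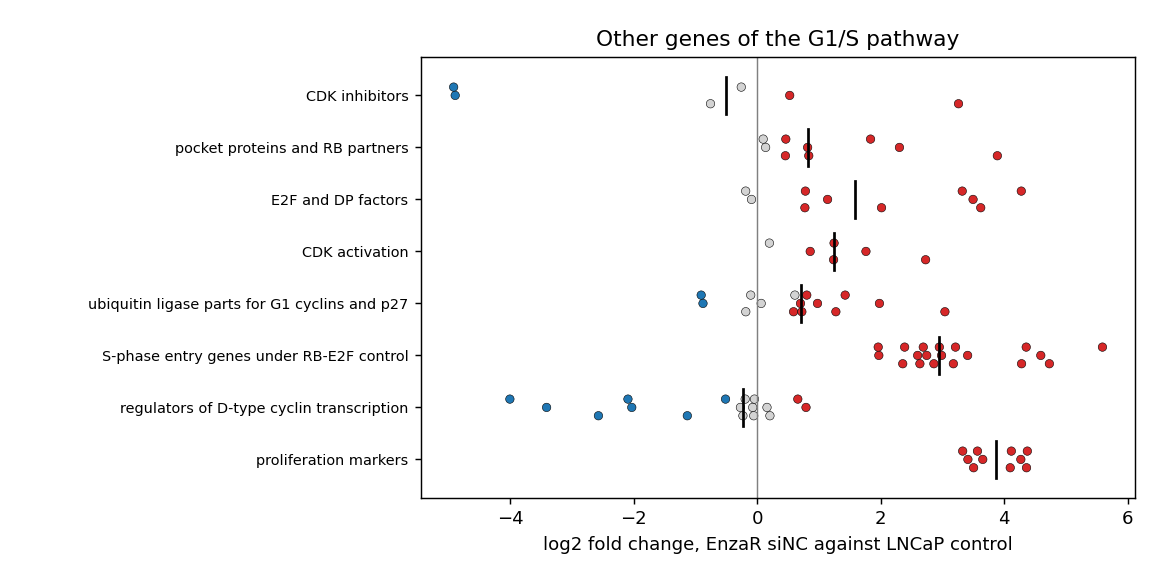
Log2 fold changes of EnzaR siNC against LNCaP control for the tested genes of the 8 pathway lists; red passed as higher, blue as lower, grey did not pass, and the black bar is each list's median. The S-phase entry genes and proliferation markers all lie above 0, with medians of 2.95 and 3.88, while the CDK inhibitors spread from -4.92 to 3.26.

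In the vesicle comparisons 5 values of list genes were past 1.5-fold, and these genes were named after their values were seen. Of all genes at 5 CPM in either library, 4.43% were past that fold for EV-siNC against control. For EV-siYAP1 and EV-siCII against EV-siNC the shares were 1.5% and 1.26%. POLA1 was higher (0.64) and BIRC5 lower (-0.64) in EV-siNC than in control, 1 of 15 S-phase entry genes and 1 of 7 proliferation markers at 5 CPM. In EV-siYAP1, CDKN1A was at 1058 CPM against 700 CPM in EV-siNC (0.60), with 601 CPM in control and 594 CPM in EV-siCII. E2F1 (-0.59) and AURKB (-0.60) were lower in EV-siYAP1 than in EV-siNC, at 5.86 and 3.71 CPM. In that comparison these were 1 of 5 CDK inhibitors, 1 of 7 E2F and DP factors and 1 of 6 proliferation markers at 5 CPM. In EV-siCII against EV-siNC 0 list genes passed.

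The 5 named genes whose log2 CPM was most like that of CCND3 over the 8 libraries, among 8916 genes with a mean of at least 10 CPM, were RBMX2, EFNA3, NDOR1, PCSK7 and URGCP, with Pearson's r of 0.987, 0.982, 0.979, 0.979 and 0.979. The likeness rests mainly on the 2 siYAP1 libraries and is a description. Their size of change was smaller than that of CCND3. EFNA3, an ephrin ligand, was at 62.8 and 68.4 CPM in siNC and 117 and 107 CPM in siYAP1, and RBMX2, a splicing factor, at 18.8 and 19.0 CPM against 24.5 and 24.3 CPM.

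Whether counting used strand is not given in the sources used here. Reads of overlapping genes therefore cannot be told apart. Of the 10 genes 8 overlap another annotated gene, 5 of them one that reached 10 counts. CCND3 overlaps no gene that reached 10 counts, and TAF8, which starts beyond its 5′ end on the opposite strand after a gap of 155 bases, was at 16.3 to 20.4 CPM in EnzaR cells with a log2 fold change of 0.08 (SE 0.15, edgeR adjusted p = 0.75). CDK4 overlaps TSPAN31 and MARCHF9, at 0.42 and 0.07 for siYAP1 against siNC (edgeR adjusted p = 0.12 and 0.775), which had log2 fold changes of -1.81 and -1.34 in EnzaR siNC against LNCaP control. CDK2 lies within PMEL, which had -1.75 in that contrast where CDK2 had 0.83. CCNE2 overlaps INTS8 and NDUFAF6, at -0.40 and -0.01 for siYAP1 against siNC (edgeR adjusted p = 0.0755 and 0.974). In EnzaR siNC against LNCaP control they had 0.73 and 1.21. Per library INTS8 had 293 to 563 counts and NDUFAF6 120 to 349, and CCNE2 had 5 to 149. CCND1 overlaps LTO1 (-0.11 between the lines) and RB1 overlaps LPAR6, at 1.68 to 3.39 CPM in all 8 libraries. The part of these overlaps in the values of the members was not tested.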

How the data were processed

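The authors deposited 1 table of raw counts per Ensembl gene and FPKM for 8 libraries of total RNA. Tools listed without a role in the submitters' processing notes are DESeq2, HTSeq 0.6.1, HISAT2 2.0.1 and cutadapt 1.9.1, and the listed build is GRCh37 (hg19). The deposited FPKM equalled the count per kilobase of exonic length scaled by the column total within 0.0051 for all 463240 values, and served only as an alternative unit. Symbols were matched for 39538 genes, which held 98.96% of counts.

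Groups came from the labels. The quasi-likelihood test of edgeR 4.0.16 (R 4.3.3), with TMM scaling, a robust fit and filterByExpr, compared EnzaR siYAP1 with siNC and, in a fit of all 8 libraries in 6 groups, EnzaR siNC with LNCaP control. P-values were adjusted by Benjamini-Hochberg over all genes tested, with a threshold of 0.05. Single libraries were compared by log2 ratios with a prior count of 2. The fits were tested on simulated data. No 2 libraries agreed within sampling noise (lowest chi-square per degree of freedom 4.71). Alternatives were DESeq2 1.42.0, limma-voom (limma 3.58.1), other scalings and filters, a replicate block, each replicate left out, and a GC and length correction (mgcv 1.9.3). The members and lists were chosen with earlier results of these data known. Named were all members, called list genes (up to 4 per list and direction), genes within 1 kb and the 5 most like CCND3. UHRF1 and PECAM1 were not matched. A gene that this rule takes is not reported here.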

Additional observations from a re-analysis of the deposited data

How the results depend on the processing

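Among genes called between siYAP1 and siNC (872 higher, 930 lower), library totals in place of TMM gave 293 higher and 1416 lower and moved the median of all genes by -0.10 on the log2 scale, the GC and length correction gave 338 and 201, and DESeq2 gave 576 lower. Leaving out 1 library gave 15 to 940 higher and 11 to 829 lower. The 15 and 11 came without siYAP1 replicate 1, and the 940 higher without siYAP1 replicate 2. In both of these fits 1 siYAP1 library is assumed to vary like the siNC group. The counts differed with which siYAP1 library was kept, and why they did was not tested. Members other than CCND3 called lower were 1, with 0 under the GC and length correction and 0 to 1 when a library was left out, the 1 being CCNE2 without siYAP1 replicate 2. Values that changed sign were CCNE1 (-0.0041 to 0.23 when a library was left out, with -0.0041 without siYAP1 replicate 1), CDK2 (-0.072 with library totals, and -0.060 to 0.14 when a library was left out, below 0 without siNC replicate 2 or siYAP1 replicate 1) and CDKN1B (-0.048 with library totals), none past the threshold. Same-numbered replicates did not deviate together (r = -0.08 over 14985 genes), and the replicate block gave 564 genes higher. Between EnzaR siNC and LNCaP control, 5 members were higher with the 4 LNCaP libraries as 1 group and 5 with the GC and length correction, against 3; lower were 1 with the correction and 1 to 3 when a library was left out, against 3, and CCND1 turned to 0.38 with the correction. For EV-siNC against control, 418 genes were higher and 63 lower past 1.5-fold; 2-fold gave 19 and 9, a floor of 10 CPM 226 and 23, and the correction 94 higher. For EV-siYAP1 against EV-siNC, 2-fold gave 5 and 8 and the floor 30 and 34, against 86 and 78; for EV-siCII these were 6 and 9, and 6 and 34, against 53 and 84. Stricter folds and floors count fewer genes by construction; the cause of the other shifts was not tested. CCND2 and CDK6 are limited by depth.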
